A study of Homo sapiens with 36 samples.

Results

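Of the 1508 entries of the miRNA count table, 8 (hsa-miR-664a-3p, hsa-miR-664a-5p, hsa-miR-1260a, hsa-miR-1260b, hsa-miR-1246, hsa-miR-4286, hsa-miR-4454 and hsa-miR-1291) are described here because reads counted under these names can come from a small nucleolar RNA (snoRNA), a transfer RNA (tRNA) or another structural RNA. They were chosen by name, with the measured values of earlier results of these data known, and all 8 were present in the table, so the p-values below are not independent of the choice. The data are small RNA libraries of WI-38 cells, normal human diploid fibroblasts, with 36 libraries in 18 conditions and 2 biological replicates per condition. Young proliferating untreated cells served as control (Ctrl). In the PMD-Sen series, senescence followed plasma membrane damage by 0.0095% SDS, a detergent, given for 24 h. In the DDR-Sen series it followed the DNA damage response to 250 nM doxorubicin (DXR), given for 24 h. Both series were sampled at the end of the 24 h treatment (D0), which the paper places before washout, and daily up to D4. Later samples were from D6, D8 and D16, and cells in replicative senescence (RS), reached by repeated passage, formed the last condition. SDS and DXR are the only treatments, and all groups are WI-38 cells. No vehicle-treated or time-matched untreated group is analysed here, so every comparison with Ctrl uses the same 2 libraries.

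A miRNA guides Argonaute to target transcripts through its seed, bases 2 to 8 counted from its 5′ end. Most miRNAs are cut from a hairpin by Drosha and Dicer, but some annotated miRNA hairpins lie inside snoRNA genes, and some short entries have the letters of a tRNA 3′ end or of a spliceosomal small nuclear RNA (snRNA). H/ACA box snoRNAs guide pseudouridylation, tRNAs carry amino acids to the ribosome, and U2 snRNA recognises the branch point of introns. These RNAs are abundant in every cell, so fragments of them can be counted as a miRNA of the same letters.

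The mature sequences below are shown because their letters are what ties each entry to a structural RNA. They come from RefSeq (GRCh38.p14, the same build as the GRCh38 named in the labels), 5′ to 3′, with the seed in capitals, and 7 of the 8 entries matched, all but miR-4286.
miR-664a-3p: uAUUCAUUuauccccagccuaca
miR-664a-5p: aCUGGCUAgggaaaaugauuggau
miR-1291: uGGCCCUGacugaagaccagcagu
miR-1246: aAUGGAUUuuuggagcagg
miR-4454: gGAUCCGAgucacggcacca
miR-1260a: aUCCCACCucugccacca
miR-1260b: aUCCCACCacugccaccau

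The mature miR-664a-3p lies at chr1:220200549-220200571 and miR-664a-5p at chr1:220200586-220200609, both on the minus strand. Both are inside the H/ACA box snoRNA gene SNORA36B, in an intron of RAB3GAP2, and 74 of the 82 bases of their hairpin are SNORA36B. miR-1291 (chr12:48654494-48654517, minus strand) is inside SNORA2C in an intron of KANSL2, with 75 of the 87 hairpin bases in the snoRNA. miR-1246 (chr2:176601024-176601042, minus strand) is antisense to the long non-coding RNA gene LINC01117, miR-1260a (chr14:77266231-77266248, plus strand) is antisense to NGB and miR-1260b (chr11:96341447-96341465, plus strand) is antisense to MAML2. miR-4454 (chr4:163093607-163093626, minus strand) lies in no GENCODE 44 protein-coding or long non-coding gene. The loci of miR-1246, miR-1260a and miR-1260b overlap no annotated snoRNA, snRNA or tRNA gene. That of miR-4454 overlaps no annotated snoRNA or snRNA gene. No hairpin position was available for miR-4454, and overlap with tRNA genes was not examined there. For these 4 entries the link to a structural RNA shown here is in their letters alone.

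Each mature sequence was compared without gaps with 1584 structural RNA sequences (snoRNA, small Cajal body RNA, snRNA, rRNA and tRNA, the tRNAs with CCA added at the 3′ end as in the mature molecule). miR-664a-3p and miR-664a-5p were found with 0 mismatches in SNORA36B and miR-1291 in SNORA2C. All 19 bases of miR-1246 were found in RNU2-1, the U2 snRNA, at bases 94 to 112 of 191. miR-4454 differed by the substitution G2A (miRNA base, position from the 5′ end of the miRNA, tRNA base) from the last 20 bases of 9 histidine tRNA genes, CCA included. miR-1260a differed by U9A or U9G from the last 18 bases of 12 tRNA genes, the leucine tRNA TRL-AAG1-1 among them. The 18 bases of miR-1260b without its last U were identical to the 3′ end of the leucine tRNA TRL-TAG2-1 with CCA. miR-1260a and miR-1260b differ from each other by U9A and by 1 base of length, and they are the only entries of the table that share the seed UCCCACC. Of 1302 entries with a RefSeq sequence, 10 (0.768%) had 0 mismatches and 15 (1.15%) at most 1. Those counts include 4 and 6 of the 7 entries shown. A match of letters is a description and does not show from which RNA a read came.

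Library totals ranged from 81670 to 1933442 counts, with a median of 376989.5, and the shallowest were both PMD-Sen D0 libraries. The 8 entries together held 0.0162% to 0.0785% of the counts of a library, 4913 reads in all. The fibroblast and mesenchymal miRNAs miR-21-5p, miR-143-3p, miR-145-5p, miR-199a-5p and miR-214-3p had reads in all 36 libraries, with ranks from 4 to 88 by mean level. Of the other markers, miR-451a, an erythroid miRNA, was at 0 in 19 and miR-142-5p, a leukocyte miRNA, in 34. The erythroid miR-486-5p, endothelial miR-126-3p, liver miR-122-5p and epithelial miR-200c-3p, however, also had reads in all 36 libraries, with ranks 117, 203, 212 and 260. Presence of reads alone thus does not separate these cell types. Levels are given as counts-per-million (CPM) of the TMM-scaled library total, and in these bulk libraries fewer cells with an RNA and less of it per cell cannot be told apart. Fold changes are from edgeR's quasi-likelihood test on all libraries, and a call means an unadjusted p below 0.05 with an absolute log2 fold change above 1, the thresholds of the study. The adjusted p is the Benjamini-Hochberg value over the 360 tested miRNAs. Of the 8 entries, 6 passed the low-count filter, which asks for 26.5 CPM (10 counts at the median total) in 2 libraries. miR-1246 reached that level only in 3 PMD-Sen libraries (both of D0 and D4 replicate 2) and miR-4454 only in 2 (PMD-Sen D0 replicate 1 and D2 replicate 2), so both were tested because of PMD-Sen libraries in which they were high. The other 4 reached it in 24 to 34 libraries. A count of 0 allows up to 3 counts (counting error only), which is 36.7 CPM of the unscaled total in the smallest library and 1.55 CPM in the largest.

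Over the 17 comparisons with Ctrl, the 6 tested entries gave 38 calls. The share called among all tested miRNAs was 9.90% in these comparisons. miR-664a-3p was higher in 16 of them and miR-664a-5p in 8, where 4.02% of all tests were called higher. miR-1246 was called higher in 8, miR-1260b higher in 1 and lower in 1, and miR-4286 lower in 4, where 5.88% of all tests were called lower. The calls of miR-1246, which passed the low-count filter only through PMD-Sen libraries, are not independent of that filter. Nor is the total of 38. miR-4454 gave 0 calls against Ctrl by edgeR and by DESeq2, with 0 unadjusted p-values below 0.05 in both. Only 17 of the 38 calls also had an adjusted p below 0.05: 10 of miR-664a-3p and 5 of miR-664a-5p, all higher, and 2 of miR-4286, both lower. The background for that rule was 4.56% (1.78% higher and 2.78% lower).

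miR-664a-3p, the arm of the SNORA36B hairpin with more reads, was the most abundant of the 8 entries, with 2028 reads and rank 177 of 1508 by mean CPM. In Ctrl it had 21.5 and 28.6 CPM. In PMD-Sen the libraries had 80.6 and 88.0 CPM (D1), 108 and 71.5 (D2), 137 and 65.9 (D3), and 117 and 72.3 (D4). Later they had 127 and 124 CPM (D6), 143 and 151 (D8), and 107 and 119 (D16). All 14 of these libraries were above both Ctrl libraries.

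The DDR-Sen libraries of miR-664a-3p had 83.7 and 51.0 CPM (D0), 69.4 and 101 (D1), 45.2 and 70.9 (D2), and 147 and 115 (D3). They reached 137 and 202 CPM (D4), 187 and 214 (D6), 247 and 179 (D8), and 303 and 249 (D16). Every DDR-Sen library was above both Ctrl libraries, and the D16 libraries were the highest of the 36. RS had 179 and 180 CPM. At D0 the PMD-Sen libraries had 211 and 11.1 CPM, from 23 reads and 1 read, a wider gap than between the replicates of any other condition. Its call against Ctrl was lost without PMD-Sen D0 replicate 1, where the log2 fold change was -1.18.

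At D16 the log2 fold change of miR-664a-3p against Ctrl was 2.12 for PMD-Sen (SE 0.54, adjusted p = 0.00872) and 3.42 for DDR-Sen (SE 0.53, adjusted p = 2.82e-05). RS gave 2.80 (SE 0.54, adjusted p = 0.000237). Of the 16 calls, the 10 with an adjusted p below 0.05 were PMD-Sen from D4 on, DDR-Sen from D3 on, and RS. DDR-Sen D2 was the only condition without a call (1.16, SE 0.60, adjusted p = 0.359), and the call at DDR-Sen D0 (1.41, SE 0.58, adjusted p = 0.467) was lost without either Ctrl replicate or without DDR-Sen D0 replicate 1. Among the 360 tested miRNAs its fold change ranked between 2 and 16 from the top in all 17 comparisons. Ordered by mean CPM, 4 of the 17 pairs of neighbouring conditions had libraries that did not overlap, among them Ctrl at the bottom and DDR-Sen D16 at the top, and the other 13 pairs overlapped.

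**Figure D1:**
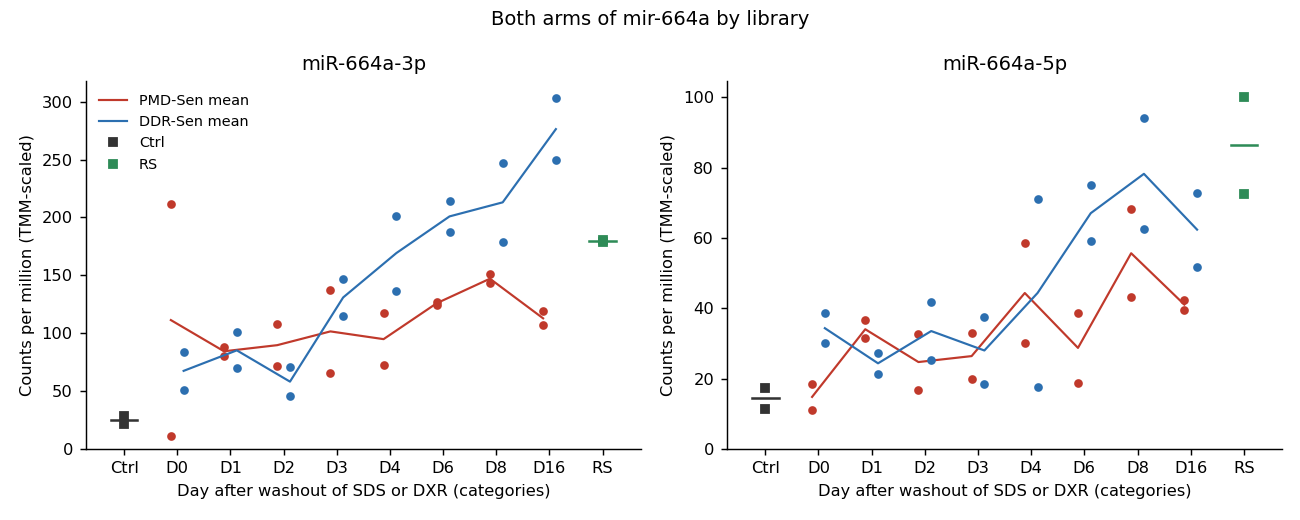
Level of miR-664a-3p (left) and miR-664a-5p (right) in CPM, on axes that differ, in each of the 36 libraries, with days as categories. Points are libraries and lines or short bars are means of 2. The DDR-Sen libraries of miR-664a-3p reach 303 and 249 CPM at D16, and Ctrl lies at 21.5 and 28.6 CPM.

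Within DDR-Sen, miR-664a-3p rose from the early to the late days, a comparison that uses no Ctrl library. The 6 libraries of D1 to D3 had 45.2 to 147 CPM (median 85.8) and the 6 libraries of D6, D8 and D16 had 179 to 303 CPM (median 231), without overlap. The log2 fold change was 1.41 (SE 0.26, adjusted p = 0.000302), where 2.22% of all tested miRNAs were called higher. In PMD-Sen the same comparison gave 65.9 to 137 CPM (median 84.3) and 107 to 151 CPM (median 126), with a log2 fold change of 0.46 (SE 0.26, adjusted p = 0.193). The difference between these changes was -0.94 (SE 0.37, adjusted p = 0.114), which was under the fold threshold and was not a call. At D16 the PMD-Sen level was lower than the DDR-Sen level by 1.30 on the log2 scale (SE 0.42, adjusted p = 0.157). This call was kept in all 36 fits that left out 1 library but had an adjusted p above 0.05. Against RS, the D16 differences were -0.68 (SE 0.42, adjusted p = 0.323) for PMD-Sen and 0.62 (SE 0.41, adjusted p = 0.478) for DDR-Sen.

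miR-664a-5p, the other arm of the same hairpin, had 675 reads and rank 254. Ctrl had 17.2 and 11.4 CPM, from 4 reads in each library. The late DDR-Sen libraries had 75.0 and 59.1 CPM (D6), 94.1 and 62.4 (D8), and 51.8 and 72.9 (D16), and RS had 100 and 72.4 CPM, all above Ctrl. The PMD-Sen libraries had 18.7 and 38.7 CPM (D6), 43.1 and 68.2 (D8), and 42.4 and 39.6 (D16). In the order of condition means, 15 of 17 neighbouring pairs overlapped. The log2 fold changes against Ctrl with an adjusted p below 0.05 were 1.96 at PMD-Sen D8 (SE 0.62, adjusted p = 0.0395), 2.23, 2.48 and 2.15 in the last 3 DDR-Sen conditions, D6 to D16 (adjusted p = 0.0185, 0.00617 and 0.0105), and 2.60 in RS (SE 0.61, adjusted p = 0.00156). The PMD-Sen D8 call was lost without Ctrl replicate 2. The calls at PMD-Sen D4 and D16 and at DDR-Sen D4 had adjusted p-values of 0.170, 0.0769 and 0.117, and each was lost in 2 of 36 fits that left out 1 library: without Ctrl replicate 2 in all of these, and without PMD-Sen D4 replicate 2, PMD-Sen D16 replicate 1 or DDR-Sen D4 replicate 2, respectively.

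From the early to the late days, miR-664a-5p also rose in DDR-Sen. The early libraries had 18.3 to 41.9 CPM and the late libraries 51.8 to 94.1 CPM, without overlap, and the log2 fold change was 1.28 (SE 0.31, adjusted p = 0.00384). PMD-Sen gave 0.48 (SE 0.32, adjusted p = 0.263), and the difference between the series was -0.79 (SE 0.45, adjusted p = 0.296). At D6 PMD-Sen was lower than DDR-Sen by 1.25 (SE 0.53, adjusted p = 0.293), a call lost without PMD-Sen D6 replicate 1 or DDR-Sen D6 replicate 1. At D16 it was lower than RS in PMD-Sen (-1.05, SE 0.47, adjusted p = 0.140, where 7.50% of all tests were called lower), a call lost in 10 of 36 fits that left out 1 library.

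The 3p arm had more reads than the 5p arm in 35 of 36 libraries and the arms were equal in 1, PMD-Sen D0 replicate 2, with 1 read each. Over all libraries the 5p arm held 675 of 2703 reads, 25.0% (95% Clopper-Pearson interval 23.3% to 26.6%, counting error only). The PMD-Sen libraries together gave 24.4% (21.9% to 27.1%) and the DDR-Sen libraries 23.8% (21.5% to 26.2%). Among conditions the share ranged from 11.1% at PMD-Sen D0 (3 of 27 reads, interval 2.35% to 29.2%) to 36.5% at DDR-Sen D2 (23 of 63 reads, interval 24.7% to 49.6%). The condition means of both arms correlated with r = 0.81 over 18 conditions, in libraries and Ctrl that they share. The miRNA whose condition means were most like miR-664a-3p was miR-495-3p (r = 0.92), followed by miR-664a-5p and miR-655-3p (r = 0.80). For miR-664a-5p they were miR-664a-3p, miR-412-5p (r = 0.81) and miR-487b-3p (r = 0.78).

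**Figure D2:**
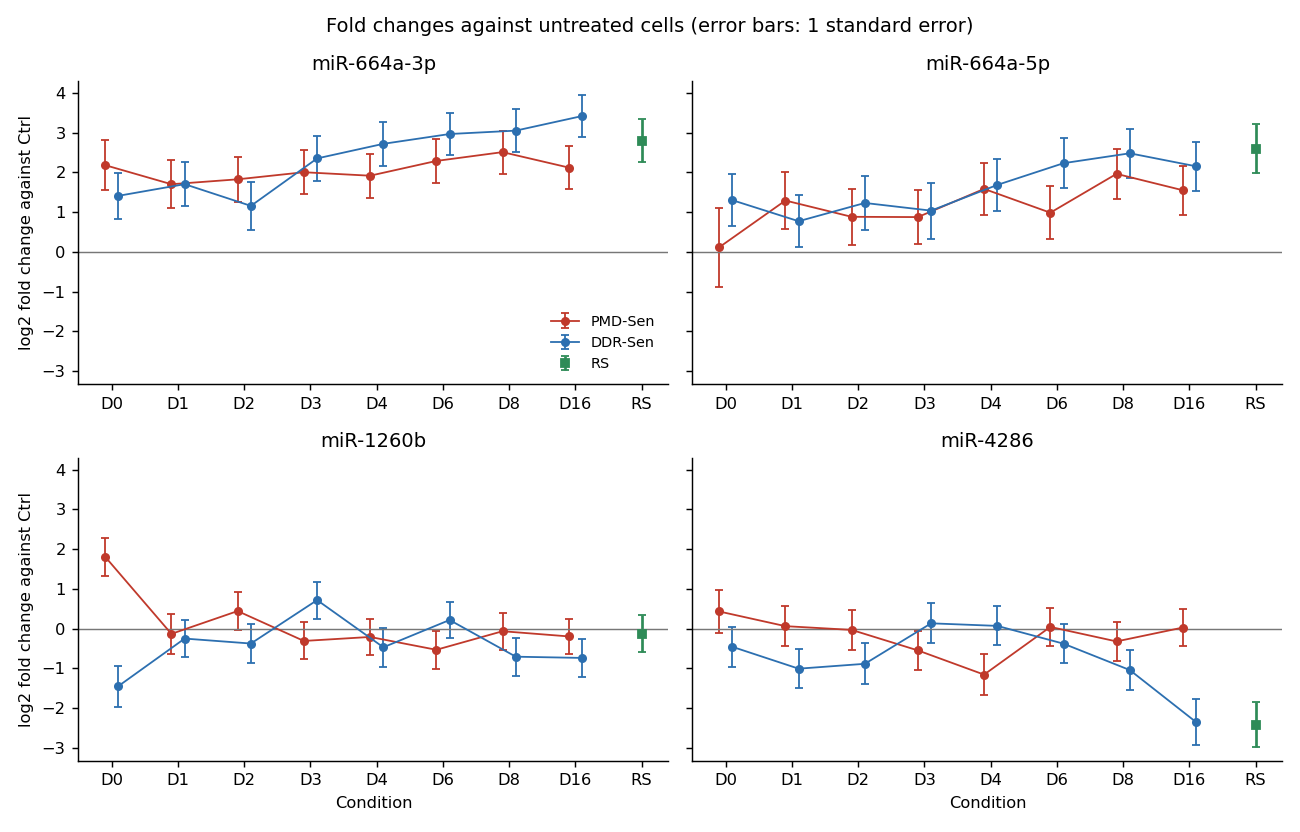
Log2 fold change against Ctrl of miR-664a-3p, miR-664a-5p, miR-1260b and miR-4286 by condition, with 1 standard error derived from edgeR's test statistic, in PMD-Sen (red), DDR-Sen (blue) and RS (green). miR-664a-3p is above 0 in all 17 comparisons, and miR-4286 is at -2.35 in DDR-Sen D16 and -2.42 in RS but 0.02 in PMD-Sen D16.

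miR-1291, from SNORA2C, had 5 reads in 4 libraries: 1 and 1 in PMD-Sen D3, 2 in PMD-Sen D16 replicate 1 and 1 in DDR-Sen D3 replicate 2. The other 32 libraries were at 0, both Ctrl libraries included, so the data bound its level and give no comparison. In a fit without the low-count filter its lowest p over the 33 comparisons made here was 0.410.

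miR-1260b, the entry with the letters of a leucine tRNA 3′ end, had 1168 reads and rank 205, and it was high at PMD-Sen D0 and low at DDR-Sen D0, the end of treatment. In Ctrl it had 73.0 and 91.5 CPM. PMD-Sen D0 had 312 and 267 CPM, from 34 and 24 reads, the highest of the 36 libraries. DDR-Sen D0 had 27.9 and 33.0 CPM, from 13 and 11 reads, and no library of any other condition was lower than 33.0 CPM except PMD-Sen D4 replicate 2 with 27.6. The groups did not overlap, and PMD-Sen D0 was higher than DDR-Sen D0 by 3.25 on the log2 scale (SE 0.51, adjusted p = 0.000192). That was 1 of 12 calls that the 6 entries gave over the 8 days, 7 higher and 5 lower in PMD-Sen, where 6.22% of all tests were called (2.85% higher and 3.37% lower). The 12 include calls of miR-1246 and miR-4454, so their number is not independent of the low-count filter. Only the D0 difference of miR-1260b and the D16 difference of miR-4286 had an adjusted p below 0.05, where the background was 1.11%. The D0 value stayed between 3.13 and 3.37 when any library was left out.

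**Figure D3:**
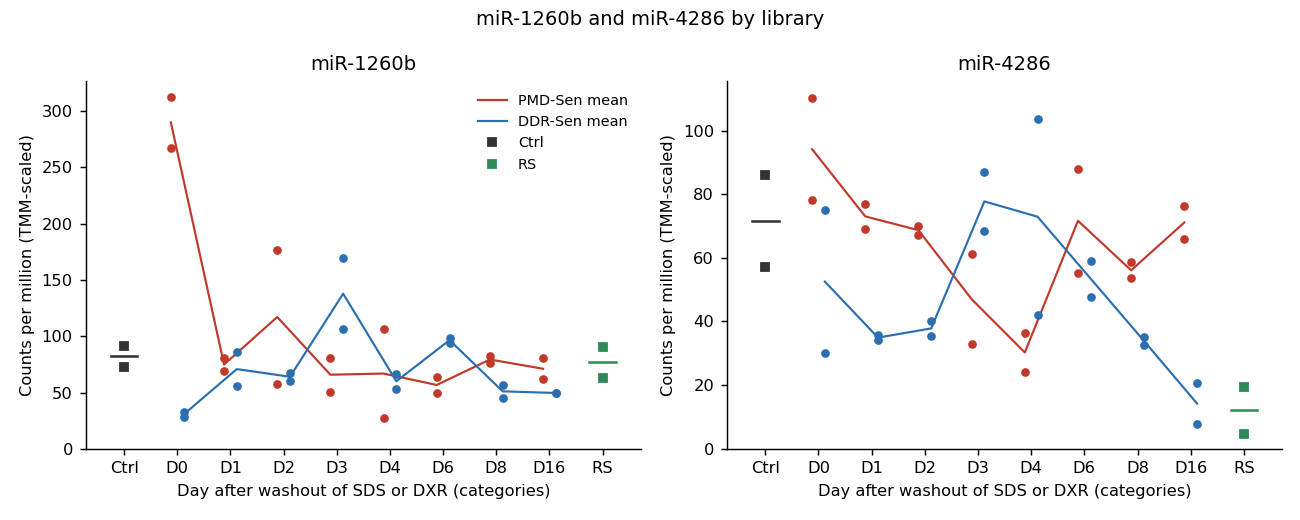
Level of miR-1260b (left) and miR-4286 (right) in CPM in each of the 36 libraries, on axes that differ, with days as categories. Points are libraries and lines or short bars are means of 2. PMD-Sen D0 has 312 and 267 CPM of miR-1260b, and miR-4286 is at 20.7 and 7.67 CPM in DDR-Sen D16 and 4.77 and 19.3 CPM in RS.

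The D0 levels of miR-1260b also differed from the days that followed. In PMD-Sen the 6 libraries of D1 to D3 had 50.7 to 177 CPM, all below D0, and D0 was higher by 1.81 (SE 0.37, adjusted p = 0.0127, where 2.22% of all tests were called higher). In DDR-Sen the 6 libraries of D1 to D3 had 55.6 to 170 CPM, all above D0, and the difference was -1.48 (SE 0.44, adjusted p = 0.162, where 0.278% were called lower). Against Ctrl, PMD-Sen D0 gave 1.81 (SE 0.47, adjusted p = 0.0585) and DDR-Sen D0 gave -1.45 (SE 0.52, adjusted p = 0.377). The latter call was lost without Ctrl replicate 2 or DDR-Sen D0 replicate 1. The PMD-Sen D0 libraries had totals of 104436 and 81670, the lowest of all, against 490954 and 311044 for DDR-Sen D0. With every library thinned to the smallest total, the D0 difference between the series was still called.

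From D1 to D16 the condition means of miR-1260b lay between 49.6 CPM (DDR-Sen D16) and 138 CPM (DDR-Sen D3, 106 and 170), with RS at 76.7 CPM (90.7 and 62.8). Replicates lay far apart at PMD-Sen D2 (57.6 and 177 CPM) and PMD-Sen D4 (106 and 27.6 CPM). PMD-Sen was lower than DDR-Sen at D3 (-1.03, SE 0.45, adjusted p = 0.339), a call lost in 10 of 36 fits that left out 1 library. Over D1 to D16 the difference was 0.09 (SE 0.18, adjusted p = 0.796). Of 17 neighbouring pairs in the order of condition means, 14 overlapped. PMD-Sen D0 stood alone at the top, and DDR-Sen D0 had the lowest mean, with PMD-Sen D4 replicate 2 below both of its libraries. The miRNAs with the most similar condition means were miR-4685-3p, miR-361-5p and miR-296-5p (r = 0.65, 0.63 and 0.63).

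miR-1260a, with the same seed, had 6 reads in 3 libraries: 1 in PMD-Sen D0 replicate 2, 3 in PMD-Sen D1 replicate 1 and 2 in DDR-Sen D8 replicate 1. It was at 0 in the other 33 libraries, and its lowest p in the fit without the filter was 0.154. The values under both names were whole numbers, and how reads that fit both were assigned is not given in the sources used here, so the division between these names is uncertain.

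miR-4286, for which no sequence is given here, had 811 reads and rank 236, and it was low in the last DDR-Sen condition and in RS. It was not compared with structural RNAs, so no link of this entry to such an RNA is shown here. Ctrl had 85.9 and 57.2 CPM, and PMD-Sen D16 had 76.2 and 66.0 CPM, from 140 and 30 reads. DDR-Sen D16 had 20.7 and 7.67 CPM, from 8 and 4 reads, and RS had 4.77 and 19.3 CPM, from 2 and 12 reads. These 4 libraries were the lowest of the 36. The log2 fold change against Ctrl was -2.35 in DDR-Sen D16 (SE 0.58, adjusted p = 0.00364), -2.42 in RS (SE 0.56, adjusted p = 0.00156) and 0.02 in PMD-Sen D16. Leaving out 1 replicate moved these values from -3.11 (without DDR-Sen D16 replicate 1) to -1.75 (without replicate 2) and from -3.93 (without RS replicate 2) to -1.85 (without replicate 1), with the calls kept.

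The difference of miR-4286 between the end points did not use Ctrl. PMD-Sen D16 was higher than DDR-Sen D16 by 2.38 (SE 0.54, adjusted p = 0.0244), and higher than RS by 2.44 (SE 0.53, adjusted p = 0.0036), where 6.67% of all tested miRNAs were called higher than RS. Leaving out 1 library moved these to between 1.78 (without DDR-Sen D16 replicate 2) and 3.14 (without DDR-Sen D16 replicate 1), and between 1.88 (without RS replicate 1) and 3.93 (without RS replicate 2). DDR-Sen D16 and RS differed by 0.06 (SE 0.67, adjusted p = 0.973), an SE too large to show that they were alike.

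At earlier days miR-4286 had no steady order of the series. DDR-Sen was at 34.2 and 35.7 CPM (D1) and 40.2 and 35.4 (D2), then at 68.4 and 87.0 (D3), 42.1 and 104 (D4), and 35.3 and 32.6 (D8). PMD-Sen had 76.9 and 69.1 CPM (D1) and its lowest level, 36.4 and 24.1, at D4. In the order of condition means, 15 of 17 neighbouring pairs overlapped. The differences between the series at D1 (1.07, SE 0.51, adjusted p = 0.215) and D4 (-1.23, SE 0.51, adjusted p = 0.227) were calls of opposite sign, and were lost in 9 and 2 of 36 fits that left out 1 library, at D4 without PMD-Sen D4 replicate 2 (or DDR-Sen D4 replicate 2, where it was -0.42). The calls against Ctrl at PMD-Sen D4 (-1.16, SE 0.52, adjusted p = 0.244) and DDR-Sen D1 (-1.01, SE 0.49, adjusted p = 0.314) were lost in 2 (without Ctrl replicate 1 or PMD-Sen D4 replicate 2) and 26 of these fits. The late against early change was -0.67 in DDR-Sen (SE 0.31, adjusted p = 0.129) and 0.09 in PMD-Sen (SE 0.28, adjusted p = 0.821), and their difference was 0.76 (SE 0.41, adjusted p = 0.272). The condition means most like it were those of miR-15b-5p (r = 0.83), miR-484 (r = 0.77) and miR-199b-5p (r = 0.76).

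miR-1246, whose letters are those of U2 snRNA, had 121 reads in 28 libraries and was at 0 in both Ctrl libraries. In PMD-Sen, 15 of 16 libraries had at least 1 read, 93 in all, and in DDR-Sen 11 of 16 had, 24 in all. The PMD-Sen reads by condition were 8 and 3 (D0), 7 and 3 (D1), 8 and 5 (D2), 13 and 1 (D3), 15 and 9 (D4), 6 and 4 (D6), 3 and 6 (D8), and 0 and 2 (D16). The DDR-Sen reads were 2 and 0 (D0), 0 and 1 (D1), 4 and 2 (D2), 6 and 1 (D3), 0 and 1 (D4), 2 and 0 (D6), 2 and 0 (D8), and 1 and 2 (D16). Both RS libraries had 2. In CPM the median was 19.4 in the PMD-Sen libraries and 3.40 in the DDR-Sen libraries.

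**Figure D4:**
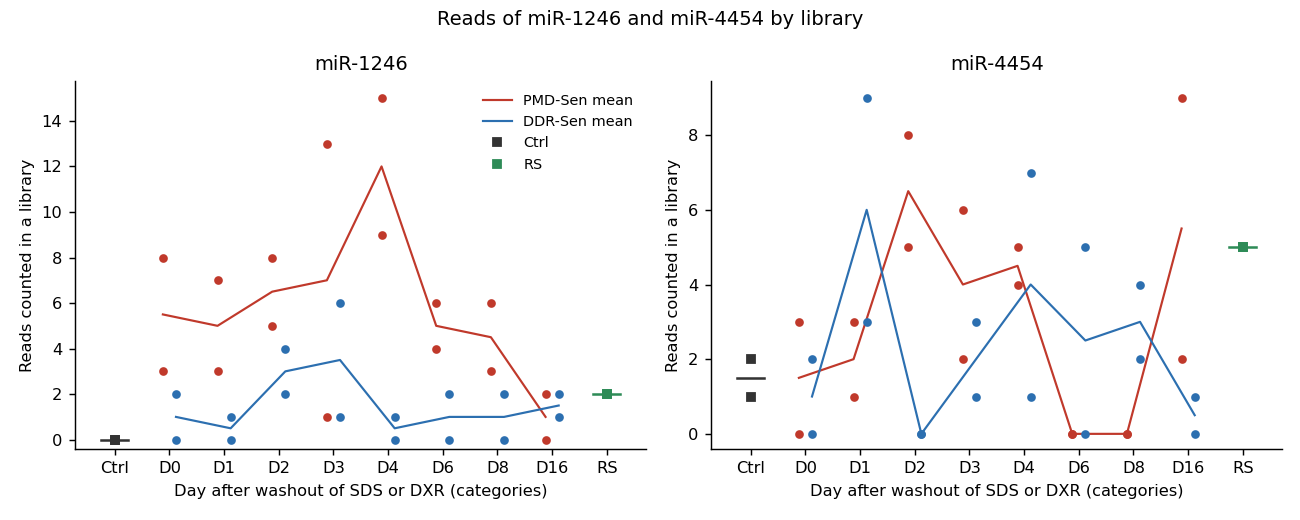
Reads counted as miR-1246 (left) and miR-4454 (right) in each of the 36 libraries, with days as categories and no correction for depth. Points are libraries and lines or short bars are means of 2. Both Ctrl libraries have 0 reads of miR-1246, PMD-Sen D4 has 15 and 9, and the PMD-Sen libraries of D6 and D8 have 0 reads of miR-4454.

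Over D1 to D16, miR-1246 was higher in PMD-Sen than in DDR-Sen by 1.73 (SE 0.54, adjusted p = 0.0204), where 1.39% of all tested miRNAs were called higher. The libraries overlapped, and the call was lost without PMD-Sen D16 replicate 2, the only PMD-Sen D16 library with reads. Since miR-1246 passed the filter only through PMD-Sen libraries, this value is not independent of the filter. In the fit of all 1393 miRNAs with a count, which has no such filter, it was 1.76 (SE 0.52, adjusted p = 0.0172). By day, the pooled CPM was higher in PMD-Sen at D0 (11 against 2 reads, ratio 22.1, 95% Poisson interval 4.83 to 206), at D1 (10 against 1 read, ratio 32.7, interval 4.65 to 1418) and at D4 (24 against 1 read, ratio 16.2, interval 2.64 to 667). These are the 3 days with a call, with adjusted p = 0.0719, 0.0656 and 0.132, and each call was lost without 1 library: PMD-Sen D0 replicate 1, DDR-Sen D1 replicate 1 and DDR-Sen D4 replicate 1. Leaving out the DDR-Sen library with reads raised the fitted value in each case, since the remaining library was at 0. On the other days the interval included 1, as at D2 (ratio 2.41, 0.854 to 7.73), D3 (1.02, 0.386 to 2.99), D6 (4.66, 0.993 to 43.7), D8 (3.99, 0.826 to 37.95) and D16 (0.264, 0.0220 to 2.30). The intervals cover counting error only. At D0 and D4 the ratios and calls are also not independent of the filter, which miR-1246 passed through both PMD-Sen D0 libraries and PMD-Sen D4 replicate 2.

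Against Ctrl at 0, the level of miR-1246 can only be bounded. With 3 counts per library in place of 0, Ctrl is at 10.7 CPM. The PMD-Sen mean was 4.98 times that level at D0 (73.5 and 33.4 CPM), 2.07 times at D1, 1.91 times at D2 and 2.55 times at D4. These bounds allow for counting error in Ctrl alone. The PMD-Sen means rest on 11, 10, 13 and 24 reads, so the true fold can be lower. At D3 and D6 the bounds were 1.12 and 1.04, and at D8 and D16 the level was below the bound of Ctrl. In DDR-Sen only D3 (20.5 and 4.58 CPM) exceeded it, with a bound of 1.17. RS, at 4.77 and 3.22 CPM, was under it. All 8 calls against Ctrl, PMD-Sen D0 to D8 and DDR-Sen D3, had adjusted p-values above 0.05, from 0.0551 at PMD-Sen D4 up. These calls are not independent of the filter, which miR-1246 passed only through libraries of PMD-Sen D0 and D4. Those at PMD-Sen D3, D6 and D8 and at DDR-Sen D3 were lost without either Ctrl library, and 3 of these 4 also without 1 library of their own (PMD-Sen D3 replicate 1, PMD-Sen D8 replicate 2 or DDR-Sen D3 replicate 1). Within PMD-Sen, miR-1246 fell from the early days (2.53 to 25.6 CPM, median 20.5) to the late days (0 to 14.6 CPM, median 8.11) by 1.83 on the log2 scale (SE 0.61, adjusted p = 0.0246, where 8.89% were called lower). That call was lost without PMD-Sen D3 replicate 1 (-1.07) or PMD-Sen D16 replicate 1, and without the filter the change was -1.66 (SE 0.64, adjusted p = 0.131). The condition means most like it were those of miR-769-3p (r = 0.70), miR-424-3p and miR-1292-5p (both r = 0.63).

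miR-4454, with the letters of the histidine tRNA 3′ end but for 1 base, had 99 reads in 26 libraries and passed the filter with the fewest reads of the 6. Ctrl had 1 and 2 reads and RS had 5 and 5. In PMD-Sen the reads were 3 and 0 (D0), 1 and 3 (D1), 5 and 8 (D2), 6 and 2 (D3), and 5 and 4 (D4), then 0 in all 4 libraries of D6 and D8, and 9 and 2 (D16). In DDR-Sen they were 0 and 2 (D0), 3 and 9 (D1), 0 and 0 (D2), 3 and 1 (D3), 1 and 7 (D4), 0 and 5 (D6), 4 and 2 (D8), and 0 and 1 (D16). The totals of the 4 libraries at 0 were 325894 to 557527, deeper than several libraries with reads.

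From the early to the late days of PMD-Sen, miR-4454 was lower, from 3.66 to 33.6 CPM in 6 of 6 libraries with reads to 0 to 4.90 CPM with reads in the D16 libraries alone. The call had an adjusted p of 0.00524, but 1 of the 2 libraries through which miR-4454 passed the filter, PMD-Sen D2 replicate 2, is among the early libraries, so it is not independent of the filter. In the fit of all 1393 miRNAs with a count the adjusted p was 0.00197. Since D6 and D8 were at 0, the size is a bound: with 3 counts per library in their place, the geometric mean of the early days was 2.13 times that of the late days. This allows for counting error in the conditions at 0 alone. The fitted difference of this change between PMD-Sen and DDR-Sen was -4.47 (adjusted p = 0.0986, where 5.56% were called lower), and the call was lost without DDR-Sen D6 replicate 2 or DDR-Sen D16 replicate 2. It rests on conditions at 0 in both series. With 3 counts in place of 0, the ratio of early to late was 2.13 for PMD-Sen and 2.88 for DDR-Sen. Only conditions with 0 reads were replaced, so DDR-Sen D2 was raised to 8.60 CPM. DDR-Sen D16, with 1 read, stayed at 0.959 CPM, under its own level of 6.77 CPM at 3 counts. These ratios therefore do not settle the direction of that difference. At D2, the PMD-Sen mean (12.5 and 33.6 CPM) was 2.68 times the bound of DDR-Sen at 0 (adjusted p = 0.0806), a call not independent of the filter. At D8 the DDR-Sen mean, from 6 reads, was 1.06 times the bound of PMD-Sen at 0 (adjusted p = 0.360). That call was lost without either PMD-Sen D8 library or DDR-Sen D8 replicate 1. The condition means most like it were those of miR-181d-5p (r = 0.70), miR-320c and miR-92b-3p (both r = 0.68), and no neighbouring pair in the order of conditions was free of overlap.

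Among other entries of the same kind, 18 names were listed and 13 were in the table, and hairpin overlap with an annotated structural RNA added miR-4521, which shares 3 bases with a tRNA gene whose strand the table does not give. Of these 14, all had reads but only miR-4485-3p and miR-4521 were tested. The remaining 12 had 3 to 41 reads over all libraries. They include miR-664b-3p and miR-664b-5p of SNORA36A, the paralog of SNORA36B, with 13 and 34 reads, and miR-6516-5p of SCARNA16 with 41. miR-4485-3p (715 reads) was called in 6 of 33 comparisons, 3 higher and 3 lower, where 2.22% to 10.3% of all tests were called, by kind of comparison. Only its rise from early to late DDR-Sen (1.08, SE 0.33, adjusted p = 0.0226, where 2.22% were called higher) had an adjusted p below 0.05. miR-4521 (3978 reads) was called lower in 7 comparisons, all against Ctrl, where 5.88% of all tests were called lower (2.78% with adjusted p). These calls include PMD-Sen D16 (-1.38, SE 0.33, adjusted p = 0.00556), DDR-Sen D16 (-1.42, SE 0.34, adjusted p = 0.0027) and RS (-1.80, SE 0.34, adjusted p = 0.000213), and 5 of the 7 had an adjusted p below 0.05.

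The 6 tested entries differed in direction among themselves. Comparisons in which no single condition is at 0 for any of them gave medians of either sign, without a test. Their median log2 difference between PMD-Sen and DDR-Sen was 1.65 at D0, 0.32 at D1, -0.25 at D3, -0.20 at D4 and -0.03 at D16, beside -0.02, 0.05, -0.03, -0.03 and 0.04 over all 360 tested miRNAs. At D16 against RS it was -0.84 for PMD-Sen and -0.33 for DDR-Sen, beside 0.03 and -0.05. At PMD-Sen D0 against D1 to D3 it was 0.47 beside -0.01. The medians that use PMD-Sen D0 or D4 are not independent of the low-count filter. miR-1246 and miR-4454 passed it only through PMD-Sen libraries, with D0 among them for both. Between the series at D0, miR-1246 and miR-4454 gave 4.32 and 2.41. The rest gave -1.19 (miR-664a-5p), 0.77 (miR-664a-3p), 0.89 (miR-4286) and 3.25 (miR-1260b). The value of miR-4454 has an SE of 1.70 and rests on 3 reads in PMD-Sen D0 and 2 in DDR-Sen D0. Also at 3 counts or fewer per library were miR-664a-5p in PMD-Sen D0 and miR-1246 in DDR-Sen D0. The value of miR-664a-3p changed sign without PMD-Sen D0 replicate 1. The D0 median thus rests on few reads and does not show a common shift. The miR-664a arms were called higher and miR-4286 lower in DDR-Sen D16 and in RS, while miR-1260b had calls against Ctrl at D0 alone.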

How the data were processed

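For each of 36 libraries, the authors deposited expected counts of mature miRNAs in 1 table. Per the study's methods, the authors made libraries with the NEXTFLEX Small RNA-Seq Kit v3, and trimmed, mapped (GRCh38) and counted reads against miRBase with exceRpt 4.6.2. How a read that fits both a miRNA and another RNA was assigned is not given in the sources used here. The values of the 8 entries were whole, and the table was rounded to whole counts. Libraries were grouped by their labels, and 0 columns had no sample. edgeR 4.0.16 in R 4.3.3 was fitted to all libraries (TMM, filterByExpr, 1 mean per condition, quasi-likelihood test, 18 residual degrees of freedom), giving 33 comparisons of 360 miRNAs. Log2 CPM used a prior count of 2. The standard error (SE) was derived as the absolute log2 fold change over the square root of the test's F statistic. The procedure was tested on simulated data, in which no miRNA with as few reads as miR-1246 or miR-4454 was given a change. P-values weigh a difference against the spread between replicate libraries, estimated over all conditions. The named entries are the 8 members, and for each tested one the 3 miRNAs with the most similar condition means. The members and lists were chosen with earlier results of these data known. Condition means were correlated with Pearson's r, as a description. The alternatives tried were DESeq2 1.42.0, other scalings and filters, adjusted p, fewer libraries, a replicate block, thinning, and leaving out each library. Library totals were 81670 to 1933442. The mRNA data were not analysed here.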

Additional observations from a re-analysis of the deposited data

Results flagged for a closer look

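Differences between the series, or between a series and RS, were tested directly. Of these, 16 passed the unadjusted threshold and 4 also had an adjusted p below 0.05. Among all tested miRNAs the unadjusted threshold was passed in 6.22% of same-day tests, 2.22% over D1 to D16, 8.61% for the difference of the late to early changes and 10.3% at D16 against RS. miR-1260b differed between PMD-Sen and DDR-Sen at D0 by 3.25 on the log2 scale (adjusted p = 0.000192). miR-4286 differed between PMD-Sen and DDR-Sen at D16 by 2.38 (adjusted p = 0.0244) and between PMD-Sen D16 and RS by 2.44 (adjusted p = 0.0036). miR-1246 differed between the series over D1 to D16 by 1.73 (adjusted p = 0.0204), with both Ctrl libraries at 0. It passed the low-count filter only through 3 PMD-Sen libraries, so this value is not independent of the filter. The change of miR-4454 from early to late days differed by -4.47 between PMD-Sen and DDR-Sen (adjusted p = 0.0986 in edgeR). It rests on conditions at 0, and 3 counts in place of 0 did not settle its direction. Conditions have 2 libraries each, too few to test a library for standing apart within its condition.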

How the results depend on the processing

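Most calls rest on few reads. In the order comparisons with Ctrl, same-day differences, D1 to D16, late against early, D0 against D1 to D3 and D16 against RS, the 6 entries gave 38, 12, 1, 5, 2 and 2 calls, where 9.90%, 6.22%, 2.22%, 8.52%, 3.33% and 10.3% of all tests were called. Calls of miR-1246 and miR-4454 among them are not independent of the low-count filter. With adjusted p, 17, 2, 1, 4, 1 and 1 remained past the threshold, and DESeq2 with adjusted p gave 22, 3, 1, 4, 1 and 1. Thinning every library to the smallest total gave 16, 1, 0, 2, 1 and 0 calls. A mean of at least 10 counts, which leaves out miR-1246 and miR-4454, gave 6 same-day calls, 0 over D1 to D16 and 2 late against early. Only the libraries compared gave 4, 0 and 2 of these, with the cause not tested. Leaving out 1 library gave 29 to 40, 9 to 13, 0 to 1, 4 to 6, 2 to 3 and 1 to 2 calls, with the lone library left taken to vary like the other conditions. Without PMD-Sen D0 replicate 1, miR-664a-3p at PMD-Sen D0 reversed to -1.18 against Ctrl (3.03 without replicate 2), -2.59 against DDR-Sen D0 (1.62) and -3.02 against D1 to D3 (1.19). Library totals without TMM shifted the median of all miRNAs by up to 0.268 and DESeq2's size factors by up to 0.117, and no called value of the entries changed sign under either. The replicate number as a block gave 37, 12, 1, 5, 2 and 2 calls. Correlations of replicate deviations between conditions ran from -0.458 to 0.366 (median 0.04), with 53 of 153 above 0.1. They cannot show whether the replicate numbers mark shared cultures, and the labels do not say.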
